A study of Mus musculus with 6 samples.

Results

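Of the 34745 genes in the deposited table, 58 genes of mitosis and the G2/M phase were followed in skeletal muscle fibroblasts treated with D-galactose (D-gal). They were listed by function, with earlier results of these data known. Of the 58, 56 were found by their symbol and the other 2, Sgo1 and Knl1, by their Ensembl identifier, because the table gives them under older symbols. All 58 passed edgeR's filter on low counts. The study used D-gal to bring the mouse fibroblast line NOR-10, derived from skeletal muscle, into senescence and sequenced their RNA. Control cells (3 libraries) received PBS and treated cells (3 libraries) received D-gal at 20 mg/mL over 3 days. Both groups come from the same line with no other allele or agent named. Nothing in the labels says that the libraries came from separate cultures, so p-values measure the spread between libraries, which may be technical.

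A dividing cell makes most of its mitotic transcripts late, from S phase to mitosis, and a cell that has left the cycle holds few of them. Cyclin B with Cdk1 starts mitosis, condensin compacts the chromosomes, kinesins and other microtubule proteins build the spindle, and kinetochores tie chromosomes to it. The spindle checkpoint holds back the anaphase-promoting complex (APC/C) until all chromosomes are attached, after which separase parts the sister chromatids and the cytokinesis machinery divides the cell. In this gene class, MuvB complexes with B-Myb and FoxM1 drive transcription, while MuvB with pocket proteins (the DREAM complex) represses it in resting cells.

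Control libraries held 16876087 to 20830349 counts and D-gal libraries 13759108 to 15157064, so that depth moved with the group. Thinned to equal depth, the counts gave the same number of lower genes among the 58, which was 56. Levels below are counts normalized by edgeR's TMM method to one library size. The fibroblast markers summed to 249878 to 255097 normalized counts in the control libraries and 139175 to 149475 in the D-gal libraries, with Lum near 0 in both. Most of that difference lay in Fn1 (means of 112079 and 46568), Col1a1 (39305 and 24065) and Col1a2 (35912 and 18327). Of the 11 markers tested 8 fell, among them Col5a1 by only 0.09 on the log2 scale, and Pdgfrb rose by 0.19. Pdgfra (-0.08) and S100a4 (-0.04) did not pass the test. The 10 muscle cell markers summed to 129 to 133 in controls and 101 to 105 after D-gal, and Myod1, Myf5, Pax7 and Mymk were at 0 throughout. Likewise the 5 endothelial markers gave 75.9 to 90.6 and 51.8 to 56.8, the 5 epithelial markers 119 to 146 and 29.5 to 47.0 (Epcam at 0), and the 5 adipocyte markers 16.2 to 27.9 and 20.2 to 33.7 (Adipoq, Cidec and Lep at 0). The 6 macrophage and blood markers summed to 837 normalized counts in control replicate 1, to 207 and 156 in the other control libraries and to 145 to 153 in the D-gal libraries, mostly through Lyz2. Their part in the results was not tested, and 55 of the 58 genes were lower without control replicate 1.

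Most mitotic transcripts were lower after D-gal. Of the 58 genes, 56 fell and none rose at an adjusted p-value under 0.05 (quasi-likelihood test of edgeR, Benjamini-Hochberg over 13407 genes). Of all genes tested, 17.8% fell and 16.9% rose. The fall was shallow. The median log2 fold change of the 58 genes was -0.52, against 0.00 for all genes tested, and 40 of them lay between -0.8 and -0.4. Only Cdc25b also met the study's criterion of a log2 fold change of -1 or less, with -1.01, and Cenpa just missed it with -0.97 (1.83% of all genes tested met both criteria downwards and 2.37% upwards). In the same 56 genes the D-gal values were all below the lowest control value. Of all genes tested, 25.0% were separate in this direction and 24.1% in the other. The smallest p that an exact two-sided permutation test allows for 3 against 3 libraries, p = 0.1, was reached by each of the 56. In bulk RNA, a smaller share of dividing cells cannot be told apart from less of each transcript per cell.

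Summed over the 58 genes, the normalized counts were 130631, 130226 and 129037 under PBS and 91716, 87871 and 88350 under D-gal. The control mean was 129965 ± 829 (SD, n = 3) and the D-gal mean 89312 ± 2095 (SD, n = 3), or 68.7% of control. The groups were far apart compared with their spread (exact two-sided permutation test, p = 0.1, the smallest possible). As a median over the genes, the D-gal libraries lay at -0.50, -0.57 and -0.53 relative to the control mean on the log2 scale, and the control libraries between 0.00 and 0.01. D-gal replicate 1 was the highest of its group for 35 of the 58 genes, whereas the control libraries shared that place more evenly, with 22, 21 and 15 genes.

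**Figure D1:**
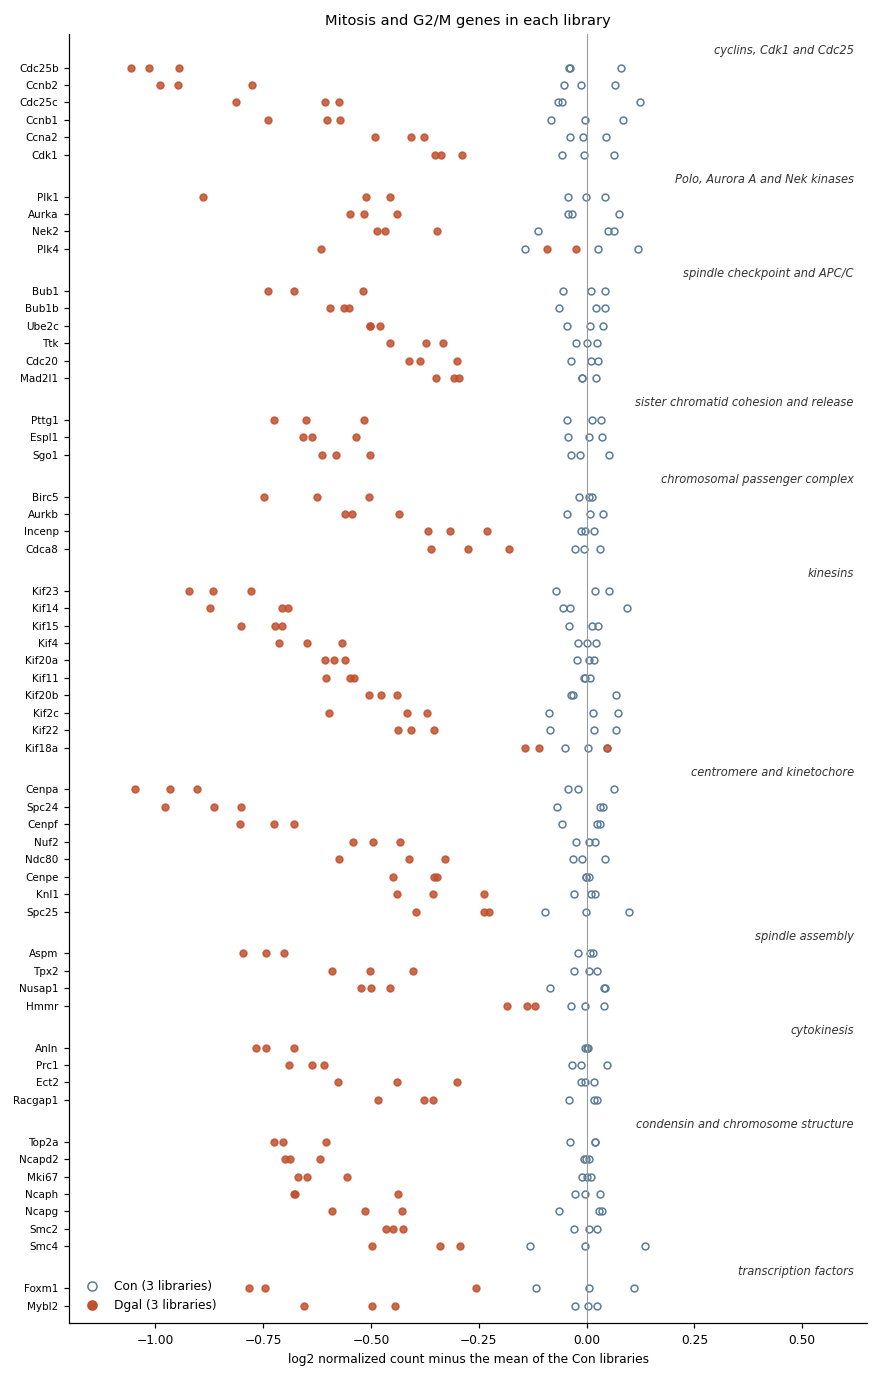
Each row is a gene, grouped by role, and each point a library (open, 3 control; filled, 3 D-gal). The x axis gives the log2 normalized count minus the mean of the control libraries, and the filled points lie left of all open points in 56 rows, with overlap in Plk4 and Kif18a.

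The 58 log2 fold changes ran from -1.01 to -0.07 with an SD of 0.19 over the genes, against a median standard error of 0.06. Across the 58 genes, which are not independent replicates, Spearman's rho was 0.03 between the log2 fold change and the control level per kilobase of exon.

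The promoters of these genes share short sequence elements that the listing by function did not use. RefSeq promoter windows (GRCm38.p6, from 250 bases before to 50 bases after a transcription start) were matched by symbol for 49 of the 58 genes, in 51 windows. The cell cycle genes homology region (CHR), to which MuvB complexes bind, was searched as TTTGAA or TTCGAA on both strands. It occurred in 39 of the 51 windows (76.5%), compared with 19.2% of all 32851 windows. CCAAT, the motif of NF-Y, was found on either strand in 36 of the windows (70.6%, against 37.4% of all), and both elements together in 33 (64.7%, against 7.52%). GGCGGGA, letters of an E2F site, occurred in 12 windows (23.5%, against 11.3%). No pair of these motifs was required to be apart, and a match is a description and not a shown binding site. Aurkb, Ccna2, Cdc25c, Foxm1, Incenp, Kif20a, Smc4, Spc24 and Tpx2 had no window in the table.

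The sequences run from 150 bases before to 30 bases after the start, for the 4 genes with the largest falls among those described in full that hold a CHR, read along each gene's strand, with the CHR in capitals. The windows are chr2:131186798-131186977 on the plus strand for Cdc25b, chr5:30666736-30666915 on the plus strand for Cenpa, chr9:61946770-61946949 on the minus strand for Kif23 and chr1:139454623-139454802 on the plus strand for Aspm (GRCm38.p6).
Cdc25b: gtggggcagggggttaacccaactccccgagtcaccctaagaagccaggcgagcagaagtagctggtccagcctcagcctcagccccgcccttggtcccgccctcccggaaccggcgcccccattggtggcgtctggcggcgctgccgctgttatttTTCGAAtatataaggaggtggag
Cenpa: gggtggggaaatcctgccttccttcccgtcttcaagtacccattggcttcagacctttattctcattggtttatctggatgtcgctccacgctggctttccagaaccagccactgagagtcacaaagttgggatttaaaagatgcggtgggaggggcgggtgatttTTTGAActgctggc
Kif23: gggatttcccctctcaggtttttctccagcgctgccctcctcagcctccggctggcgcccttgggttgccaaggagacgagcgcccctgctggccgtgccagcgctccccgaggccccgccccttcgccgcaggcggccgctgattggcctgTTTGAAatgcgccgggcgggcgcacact
Aspm: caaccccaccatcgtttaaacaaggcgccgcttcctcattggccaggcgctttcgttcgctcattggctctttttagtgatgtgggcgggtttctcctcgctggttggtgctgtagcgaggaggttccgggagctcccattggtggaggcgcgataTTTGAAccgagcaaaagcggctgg

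In these 4 windows the CHR begins 8, 17, 3 and 7 bases into the RefSeq transcript, counted from 1 at its start, and reversed CCAAT letters (attgg) stand before it. Starts of windows are those of RefSeq and can differ from the deposited ones. The deposited start of Cenpa, 30666777, lies before its RefSeq start and inside the printed sequence. Across the class, a CHR began between 25 bases before and 50 bases after the start in 31 of the 51 windows (60.8%), compared with 3.86% of all windows. This interval was chosen after the positions had been seen.

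**Figure D2:**
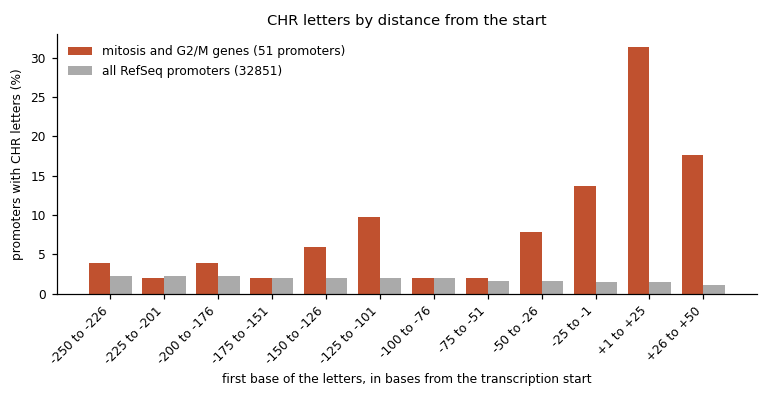
Percentage of promoter windows in which CHR letters begin, in intervals of 25 bases from the transcription start, for the 51 windows of the mitosis and G2/M genes and for all 32851 RefSeq windows. The class reaches 31.4% in the first 25 bases after the start, where all windows reach 1.43%.

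The 37 genes with a CHR had a median log2 fold change of -0.57, with all 37 lower, and the 12 without one had a median of -0.49, with 10 lower. Among all other genes tested with a window, 296 of the 1548 with a CHR were lower (19.1%), compared with 1404 of the 8147 without (17.2%). Of the 278 with a CHR between 25 bases before and 50 bases after the start, 75 were lower (27.0%) and 42 higher. These other genes still include the further mitotic genes and the DNA replication and G1/S genes given next. The 278 hold 24 further mitotic genes, of which 19 were lower and 1 higher. They also hold 3 DNA replication and G1/S genes, of which 2 were lower and 0 higher. For 67 further mitotic genes outside the class, the median log2 fold change was -0.32 for the 37 with a CHR (-0.45 for the 24 of them with one in that interval) and -0.19 for the 30 without. For 39 DNA replication and G1/S genes the order was the opposite, with -0.19 for the 8 with a CHR and -0.34 for the 31 without. These differences were not tested.

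Entry into mitosis is set by cyclins A and B, Cdk1 and the Cdc25 phosphatases that activate it. All 6 of these genes fell, with a median log2 fold change of -0.65. Cdc25b (chromosome 2, 131186949 to 131198497 as deposited, matching GRCm38, plus strand), a phosphatase that removes the inhibitory phosphates of Cdk1, fell most of the 58 genes. Its normalized counts were 556, 605 and 557 under PBS and 297, 283 and 275 under D-gal, a log2 fold change of -1.01 (standard error 0.07, edgeR adjusted p = 4e-05). It was -0.96 without control replicate 2 and -0.98 without D-gal replicate 3, both short of the criterion. The exons of Cdc25b overlap those of Spef1 on the other strand. Cdk1, the catalytic subunit, fell least of the 6. Its normalized counts of 3332, 3214 and 3496 under PBS and 2648, 2740 and 2621 under D-gal gave a log2 fold change of -0.33 (standard error 0.04, edgeR adjusted p = 0.00067). The cyclins Ccnb2 and Ccnb1 had log2 fold changes of -0.90 and -0.64, whereas Ccna2 fell by 0.42 on the log2 scale. Cdc25c fell by 0.66. Words of 31 bases shared with other annotated genes made up 28.7% of Ccnb1, 18.3% of Cdc25c and 12.2% of Ccna2, and the last 2 overlap a gene on the other strand.

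Plk1, Aurka and Nek2 drive centrosome separation and spindle assembly, and Plk4 starts the duplication of centrioles. The first 3 fell, while Plk4 did not pass the test. Plk1 had 2245, 2177 and 2116 normalized counts under PBS and 1587, 1175 and 1527 under D-gal. Its log2 fold change was -0.61 (standard error 0.10, edgeR adjusted p = 0.0025), and -0.48 without D-gal replicate 2, which was the lowest. Plk1 shares 21.4% of its words with other genes and overlaps Gm44985 on the other strand. For Plk4 the normalized counts were 675, 563 and 633 under PBS and 611, 584 and 406 under D-gal. The groups overlapped, and the log2 fold change was -0.22 with a 95% confidence interval from -0.56 to 0.12 (edgeR adjusted p = 0.28). Only D-gal replicate 3 lay below all controls, and without it the value was -0.06. Aurka fell by 0.50 and Nek2 by 0.44 on the log2 scale.

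Among the genes of the spindle checkpoint and its target, all 6 fell. Bub1, a checkpoint kinase at kinetochores, had 1407, 1505 and 1472 normalized counts under PBS and 1020, 912 and 875 under D-gal, a log2 fold change of -0.64 (standard error 0.06, edgeR adjusted p = 0.0002). Mad2l1 encodes Mad2, which binds and inhibits Cdc20. It fell least, from 1993, 2040 and 1993 to 1622, 1636 and 1577 normalized counts, or by 0.32 on the log2 scale (standard error 0.04, edgeR adjusted p = 0.00036). The groups were separate in both genes. Between these lay Bub1b (-0.57), Ube2c (-0.49), Ttk (-0.39) and Cdc20 (-0.37). Cdc20 activates the APC/C and Ube2c is an E2 enzyme that works with it. Both overlap a gene on the other strand, and Ube2c shares 32.5% of its words with other genes, the highest share of the 58, and Cdc20 shares 21.4%.

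The 3 genes that guard or release sister chromatid cohesion all fell, by similar amounts. Pttg1, securin, had 798, 831 and 843 normalized counts under PBS and 576, 498 and 525 under D-gal, a log2 fold change of -0.63 (standard error 0.07, edgeR adjusted p = 0.00029). Sgo1, shugoshin, which protects centromeric cohesin, had 785, 835 and 797 normalized counts under PBS and 526, 538 and 569 under D-gal. The log2 fold change was -0.57 (standard error 0.06, edgeR adjusted p = 0.00022). Espl1, separase, lay between them with -0.61. All D-gal values of the 3 genes were below all control values.

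The chromosomal passenger complex joins Aurora B to Incenp, survivin and borealin and corrects faulty attachments. All 4 genes fell, but to unequal depth. Birc5, survivin, had 1691, 1657 and 1685 normalized counts under PBS and 1087, 1183 and 999 under D-gal, a log2 fold change of -0.62 (standard error 0.06, edgeR adjusted p = 0.00019). Cdca8, borealin, had 821, 800 and 788 normalized counts under PBS and 709, 664 and 625 under D-gal. The log2 fold change, -0.27 (standard error 0.06, edgeR adjusted p = 0.011), had an interval from -0.41 to -0.13 that does not reach the one of Birc5 (-0.76 to -0.48). Cdca8 overlaps 9930104L06Rik on the other strand. The kinase Aurkb changed by -0.51 and the scaffold Incenp by -0.30, both past the test.

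Of the 10 mitotic kinesins, 9 fell, with a median of -0.57 over all 10. Kif23 (chromosome 9, 61917280 to 61946799 as deposited, minus strand), the motor of the centralspindlin complex at the midzone, fell most. Its normalized counts were 1973, 1812 and 1931 under PBS and 1110, 1044 and 1004 under D-gal, a log2 fold change of -0.86 (standard error 0.05, edgeR adjusted p = 2.3e-05). Kif18a (chromosome 2, 109280738 to 109341747, plus strand), which dampens chromosome movements at the metaphase plate, was the kinesin that did not pass. It had 447, 418 and 434 normalized counts under PBS and 401, 392 and 447 under D-gal. D-gal replicate 3 matched the highest control, and the log2 fold change was -0.07 with a 95% confidence interval from -0.24 to 0.10 (edgeR adjusted p = 0.53). That interval excludes the median fall of the class. Kif18a has the lowest control level per kilobase of the 58 genes and overlaps Mettl15 on the other strand. The remaining 8 kinesins were Kif14 (-0.76), Kif15 (-0.74), Kif4 (-0.64), Kif20a (-0.58), Kif11 (-0.56), Kif20b (-0.47), Kif2c (-0.46) and Kif22 (-0.40). Kif20a, with 27.6% shared words, overlaps Cdc23 on the opposite strand, and Kif4 and Kif22 also overlap a gene on the other strand.

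At the centromere and kinetochore all 8 genes fell. Cenpa (chromosome 5, 30666777 to 30674830 on GRCm38, plus strand), the histone H3 variant that marks centromeres, had 1518, 1433 and 1410 normalized counts under PBS and 744, 703 and 776 under D-gal. Its log2 fold change of -0.97 (standard error 0.06, edgeR adjusted p = 1.5e-05) was the second in size after that of Cdc25b. Spc25 showed the smallest change of the group. It had 992, 867 and 927 normalized counts under PBS and 705, 793 and 786 under D-gal, a log2 fold change of -0.29 (standard error 0.07, edgeR adjusted p = 0.016). The call was lost without control replicate 1 (log2 fold change -0.24, edgeR adjusted p = 0.053). Its partner Spc24 fell by 0.88, and the intervals of the pair, -1.06 to -0.70 for Spc24 and -0.45 to -0.12 for Spc25, did not meet. The other members of this group fell between 0.74 (Cenpf) and 0.34 (Knl1) on the log2 scale, with Nuf2 at -0.49, Ndc80 at -0.44 and Cenpe at -0.38.

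Tpx2, Hmmr, Aspm and Nusap1 nucleate, focus or bundle spindle microtubules, and all 4 fell. Aspm, which keeps minus ends focused at the poles, had 1692, 1733 and 1725 normalized counts under PBS and 1055, 988 and 1025 under D-gal. Its log2 fold change was -0.75 (standard error 0.04, edgeR adjusted p = 1.5e-05). Hmmr had 2227, 2178 and 2295 normalized counts under PBS and 2054, 1964 and 2029 under D-gal. These groups were close but did not overlap, and the log2 fold change was -0.15 (standard error 0.04, edgeR adjusted p = 0.018). That call was lost in DESeq2 (adjusted p = 0.056), in limma on log2(FPKM + 1) (0.083), and in edgeR without control replicate 3 (0.061) or D-gal replicate 2 (0.054). Hmmr also encodes a hyaluronan receptor. Tpx2 changed by -0.50 and Nusap1 by -0.49, the latter overlapping Oip5 on the other strand.

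The 4 cytokinesis genes fell. Anln (chromosome 9, 22331214 to 22389206 as deposited, minus strand), the actin-binding scaffold of the contractile ring, had the smallest p-value of the 58 genes. Its normalized counts were 4462, 4437 and 4455 under PBS and 2780, 2659 and 2617 under D-gal, a log2 fold change of -0.73 (standard error 0.03, edgeR adjusted p = 7.7e-06). Racgap1, the GTPase-activating partner of Kif23 in centralspindlin, had 3177, 3164 and 3037 normalized counts under PBS and 2405, 2440 and 2235 under D-gal. On the log2 scale it changed by -0.41 (standard error 0.04, edgeR adjusted p = 0.00029). Prc1, the bundler of midzone microtubules, changed by -0.65 and overlaps Rccd1 on the other strand, and Ect2, the RhoA exchange factor, changed by -0.43.

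Condensin compacts chromosomes, and all 7 genes of condensin and chromosome structure fell. Top2a (chromosome 11, 98992943 to 99024189 on GRCm38, minus strand), topoisomerase II alpha, which untangles sister chromatids, had 11790, 11781 and 11312 normalized counts under PBS and 7649, 7031 and 7135 under D-gal. On the log2 scale it changed by -0.68 (standard error 0.04, edgeR adjusted p = 1.5e-05), and Gm23451 overlaps it on the same strand. Smc4, an ATPase of condensin, had 3495, 3174 and 2903 normalized counts under PBS and 2253, 2514 and 2595 under D-gal. Both groups were wide, without overlap, and the log2 fold change was -0.38 (standard error 0.08, edgeR adjusted p = 0.0063). Mki67, the coat of mitotic chromosomes and a common marker of proliferating cells, changed by -0.62. The other condensin genes were Ncapd2 (-0.67), Ncaph (-0.59), Ncapg (-0.51) and Smc2 (-0.45). Ncapd2 overlaps Scarna10 and Gm28967 on its strand, and Ncapg overlaps Lcorl on the other.

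Both transcription factors of the program fell. Foxm1 had 2522, 2712 and 2316 normalized counts under PBS and 1497, 1459 and 2103 under D-gal. D-gal replicate 3 stood close to the controls, and the log2 fold change was -0.58 (standard error 0.13, edgeR adjusted p = 0.012), and -0.77 without that library. Foxm1 overlaps Tex52 and Gm44596 on its strand. Mybl2, which encodes B-Myb, had 773, 785 and 757 normalized counts under PBS and 567, 546 and 490 under D-gal, a log2 fold change of -0.53 (standard error 0.07, edgeR adjusted p = 0.00064). It shares 20.1% of its words with other genes.

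Some counts could be mixed with those of a neighbour or a copy. Exons of 18 of the 58 genes overlap those of another gene, 15 on the other strand and 3 on the same strand, and whether counting used the strand is not given in the sources used here. In 18 genes at least 5% of the words were shared with other genes. Of the 31 genes free of both, 30 were lower and Plk4 did not pass, with a median log2 fold change of -0.57.

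Genes whose proteins work together were then compared within each library, where a ratio of counts does not depend on the scaling between libraries. The 13 pairs were chosen after the counts had been seen. In 6 pairs the D-gal ratios were separate from all control ratios, and in 7 the groups overlapped. In each of the 6 the gene with the larger fall was the numerator, so their shared direction, downwards, has no meaning of its own. Of single genes tested, 25.0% were separate downwards and 24.1% upwards, and no such share was obtained for other pairs of genes. The ratio of Spc24 to Spc25 was 0.497, 0.531 and 0.535 under PBS and 0.347, 0.35 and 0.337 under D-gal, a difference of -0.59 on the log2 scale. Ccnb2 to Cdk1 went from 0.335, 0.329 and 0.294 to 0.235, 0.196 and 0.211, a difference of -0.58. For the centralspindlin pair, Kif23 to Racgap1, the ratio was 0.621, 0.573 and 0.636 under PBS and 0.462, 0.428 and 0.449 under D-gal (-0.45). Birc5 to Cdca8 (-0.36), Ccnb1 to Cdk1 (-0.31) and Aurkb to Incenp (-0.21) were also separate, the last by less than the third digit. With 3 libraries against 3, the exact two-sided permutation p of each was 0.1, the smallest possible, or 0.217 adjusted over the 13 pairs. In contrast, Ndc80 to Nuf2 differed by 0.05, Tpx2 to Aurka by 0.00, Pttg1 to Espl1 by -0.02 and Smc2 to Smc4 by -0.07, with overlapping groups.

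**Figure D3:**
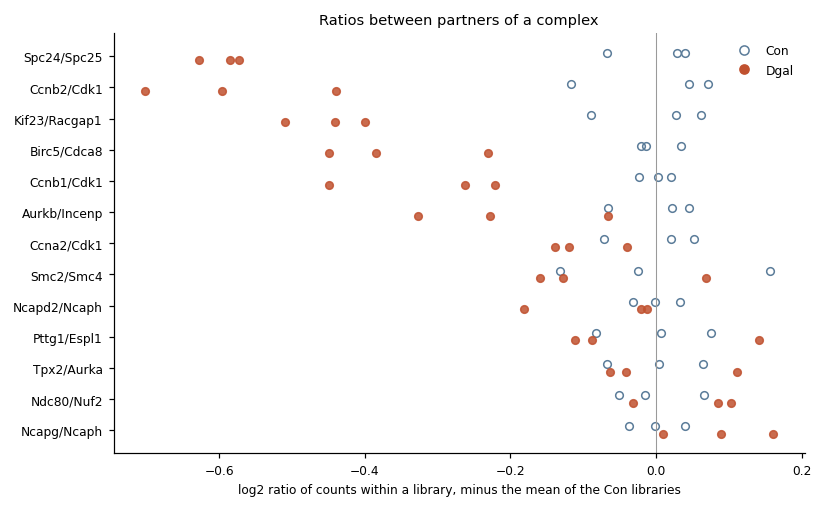
Log2 ratio of the counts of both partners within a library, minus the mean of the control libraries, for 13 pairs (open, 3 control libraries; filled, 3 D-gal libraries). Spc24/Spc25 and Ccnb2/Cdk1 shift furthest to the left, by 0.59 and 0.58 in size, whereas Tpx2/Aurka and Pttg1/Espl1 overlap with their controls.

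Levels between genes were compared as normalized counts per kilobase of annotated exon. In the control group these ran from 44.0 for Kif18a to 1290 for Top2a, with a median of 312, and in the D-gal group from 42.0 to 954, with a median of 220. Top2a, Cdc20, Tpx2, Ube2c and Mki67 were the 5 highest in the control group at 1290, 1230, 1226, 1175 and 1091. The same 5 led under D-gal, with Cdc20 first at 954 and Top2a behind Tpx2 and Ube2c at 807. The order was nearly kept (Spearman's rho 0.98 across the 58 genes, which share their libraries). Cenpa moved from place 35 to 45 and Cdc25b from 50 to 54, while Hmmr moved from 23 to 16.

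**Figure D4:**
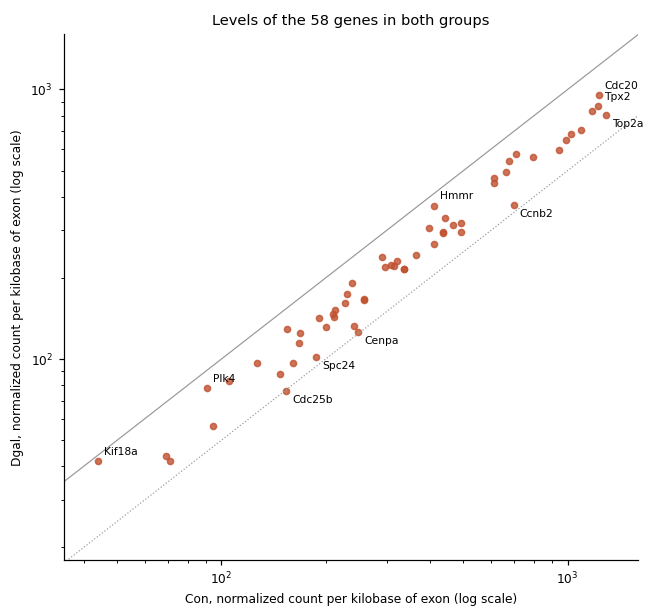
Normalized count per kilobase of exon in the control group (x axis) and the D-gal group (y axis), means of 3 libraries on log axes, with 1 point per gene. The solid line marks equal levels and the dotted line a log2 difference of -1. Cdc25b lies on the dotted line and Kif18a and Hmmr lie nearest the solid one.

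Other cell cycle genes were taken from lists written from general knowledge. Of 81 further mitotic genes, 55 were lower and 2 higher (67.9% lower, against 17.8% of all genes tested), with a median log2 fold change of -0.37. Iqgap3 (-0.89, standard error 0.05) and Hjurp (-0.60, standard error 0.03), the chaperone that loads Cenpa, had the smallest p-values (edgeR adjusted p = 1.1e-05 for each). The 2 that rose were Gtse1 (0.31) and Psrc1 (0.35), named here after their values were seen. For the 15 APC/C genes the median was -0.05, with 5 lower (33.3%) and 1 higher. For the 13 cohesin genes it was also -0.05, with 4 lower (30.8%) and 0 higher. Ube2s (-0.39) and Anapc1 (-0.15) led the first list and Rad21 (-0.40) and Smc1a (-0.28) the second. Among the 17 MuvB, E2F and pocket protein genes 4 were lower (23.5%) and 3 higher, with a median of -0.07. The shares of all genes tested were 17.8% lower and 16.9% higher. Of the 3 pocket protein genes, Rbl1 (p107) fell by 0.74 on the log2 scale, whereas Rb1 (0.33) and Rbl2 (0.16) rose. Tfdp2, an E2F partner, rose by 1.42. Of the E2F genes, E2f8 changed by -0.49 and E2f2 by -1.19, both past the test. E2f2 was low, with mean normalized counts of 43.3 in controls and 19.0 after D-gal. E2f1, E2f3, E2f4, E2f5 and E2f7 did not pass the test. Of the 5 MuvB core genes, Rbbp4 fell by 0.18, while Lin9 (-0.06), Lin37 (0.17), Lin52 (-0.11) and Lin54 (-0.07) did not pass the test. Beyond Rbl1 and Tfdp2, these genes are named after their values were seen.

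Genes of DNA replication and the G1/S transition, which act earlier in the cycle, also fell. Of the 51 tested, 34 were lower and 0 higher at the adjusted p-value (38 and 0 at an unadjusted p under 0.05, where 22.6% of all genes tested were lower and 22.0% higher, and 33 lower in DESeq2), with a median log2 fold change of -0.33. Pole (-0.64) and Ccnd1 (-0.73) had the smallest p-values. The difference between this median and that of the mitotic genes was not tested. Of the CDK inhibitors, which restrain the cyclin kinases, Cdkn2b was higher at 803 ± 66.8 normalized counts against 281 ± 11.6 in controls (SD, n = 3 each). Its log2 fold change was 1.52. Cdkn2a changed by 0.23 past the test and Cdkn2c by -0.63, whereas Cdkn1a (0.05), Cdkn1b (-0.17), Cdkn1c (0.37) and Cdkn2d (0.04) did not pass. Trp53, in the same list but not a CDK inhibitor, did not pass either (0.00).

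**Figure D5:**
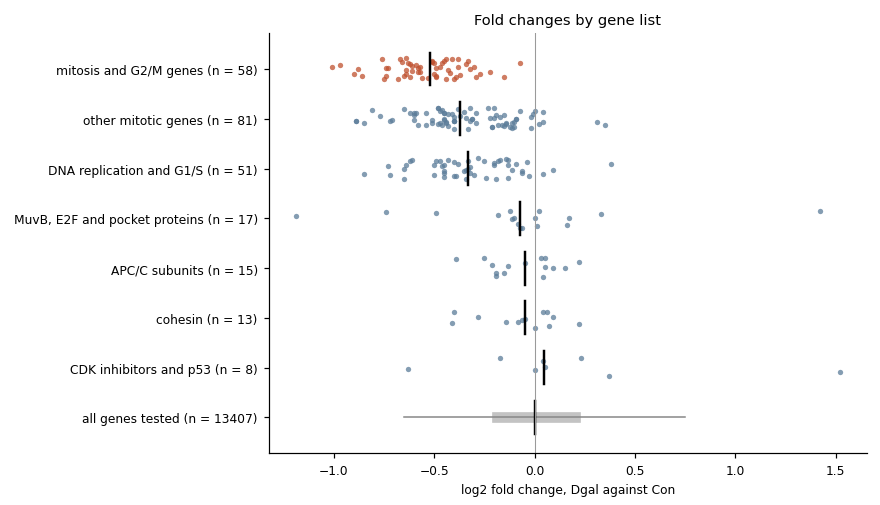
Log2 fold changes between the D-gal and control groups, with 1 point per gene and a black bar at the median of each list. The bottom row gives all 13407 genes tested, with a thick bar for the middle 50% and a thin line from the 5th to the 95th percentile. The mitosis and G2/M genes all lie below 0 with a median of -0.52, and cohesin and APC/C subunits centre near 0.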

How the data were processed

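The authors deposited, for each gene and library, a raw count of reads and an FPKM value, in which they divided the count by gene length and library total. The methods name a small RNA library kit, although the study describes mRNA sequencing. Reads had been trimmed with Trimmomatic per the methods, and the submitters' processing notes name HISAT2 (version 2.0.4). The counting tool and annotation are not given in the sources used here.

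Groups came from the sample titles, dose and time from the methods. Counts of 3 control and 3 D-gal libraries were tested with edgeR (version 4.0.16, R 4.3.3; TMM, filterByExpr, quasi-likelihood test, Benjamini-Hochberg adjustment over 13407 genes), after a check on simulated counts. Each standard error was taken as the absolute log2 change over the root of F. No 2 libraries of a group were the same within counting noise (chi-square over its degrees of freedom, 6.00 to 9.42). Exon lengths, overlaps and shared words of 31 bases (1 in 16 kept) came from GENCODE M21 (GRCm38), where 46 of the 58 genes have the deposited start and end. The deposited positions carry no build name, and GRCm38 was read from this match; the other 12, such as Kif23 and Anln, have slightly different ends there.

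The genes and lists were chosen with earlier results of these data known. Described in full are the largest and smallest change in each of 11 roles and every gene that did not pass; of other lists, the 2 smallest p-values are named. Alternatives were DESeq2 (version 1.42.0), RLE factors, other count filters, a replicate block, each library left out, limma (version 3.58.1) on log2(FPKM + 1), thinned counts and an adjusted p under 0.01.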

Additional observations from a re-analysis of the deposited data

How the results depend on the processing

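The count of lower mitosis and G2/M genes lay between 52 (adjusted p under 0.01) and 56 under all alternatives, and between 55 and 56 with each library left out. The 4 genes not called at that stricter threshold were Cdca8, Foxm1, Spc25 and Hmmr. No log2 fold change of the 58 genes changed sign under any alternative. At an adjusted p under 0.05, 5 calls were lost, 1 of Spc25 and 4 of Hmmr. The median of -0.52 moved to -0.45 in limma on log2(FPKM + 1), where the tool, the scaling and the pseudocount all differ (the cause was not tested), and lay between -0.54 and -0.50 with a library left out. The single gene meeting the fold change criterion became 0 in limma, and 0 to 1 with a library left out. Where 1 gene met it, that gene was Cdc25b, except without D-gal replicate 3, where Cdc25b was at -0.98 and Cenpa, at -1.01, met the criterion. Over all genes, 1470 instead of 2393 were lower at an adjusted p under 0.01. Further mitotic genes gave 42 to 56 lower and DNA replication and G1/S genes 27 to 35.

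The replicate numbers paired nothing: same-numbered libraries correlated at -0.0133, -0.00403 and 0.0277 in their deviations from the group means. With the replicate block, 56 mitosis and G2/M genes and 2048 of all genes were lower, the median was -0.52, and 53 further mitotic and 33 replication genes were lower. With 3 libraries a group, an exact test of 1 gene cannot go below p = 0.1.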
